A study of Mus musculus with 6 samples.

Results

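Ribosomal proteins form the protein part of the cell's ribosomes, and their transcripts were followed here in the lungs of mice sensitized and challenged with ovalbumin (OVA). Probes were taken by gene symbol: Rpl or Rps followed by a digit, Rplp0, Rplp1, Rplp2 and Rpsa for the cytosolic ribosome, and Mrpl or Mrps followed by a digit for the ribosome of mitochondria. On the array 153 rows of 134 genes fit this rule after 4 rows of S6 kinases were left out, and 17 of these rows are spots of the same Rpl5 sequence, which were averaged. Of the 137 resulting probes, 121 had a value on at least 4 of the 6 arrays and were tested, among 11640 tested probes and 17280 in the whole table. They stand for 120 genes, with 58 probes of the cytosolic ribosome (38 of the large and 20 of the small subunit) and 63 of the mitochondrial ribosome (40 of the large and 23 of the small subunit).

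Each of 6 arrays compared amplified lung RNA of 1 C57 mouse, sensitized to and challenged with OVA, with a single pool of amplified lung RNA from control C57 mice. The labels say nothing more of genotype, age, sex, dose or time for either side. The values are log ratios, read here as log2, and their direction and dyes are not settled by the labels. Signs are therefore those of the deposited ratio, a size is given as a fold apart from the pool, and no sign is read as the side of the OVA mice. A positive or a negative ratio below says on which side of the pool a probe lay, and not whether the OVA mice had more or less of the transcript.

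The cytosolic ribosome translates the messages of the nuclear genome, and its proteins are made in near equal amounts from transcripts that carry a run of pyrimidines at their 5′ end, through which the mTOR pathway controls their translation. The mitochondrial ribosome is built from a separate set of proteins that are also encoded in the nucleus, and it makes only the membrane subunits of oxidative phosphorylation that mitochondrial DNA encodes. In lung tissue, cytosolic ribosomal protein transcripts are abundant in every cell type, and they make up a large share of the messages of lymphocytes.

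Runs of pyrimidines were looked for near the annotated start of each gene, and a run was not required to begin at the start. Such a run need not be the one at the 5′ end of the message. The longest run of C and T inside the window from 30 bases before to 40 bases after that start was taken, and a run that crosses an edge was cut there. The 30 bases around it are shown for every cytosolic member that passed the test below and has a promoter entry. These are 9 positive members and 1 negative member, in order of their mean ratio. Mrpl45 and Mrpl51, the mitochondrial members with the highest and the lowest mean, follow. Sequences are from RefSeq on GRCm38.p6, written 5′ to 3′ on the gene's strand. Capitals mark the run, and its first base is given relative to the annotated start, which is position 0, because many of these runs lie away from the start itself.
Rps23, chr13:90923135-90923164, plus strand, run of 8 from 24: tgccttgtgggTCCTTCCTgcacctcctct
Rps15, chr10:80292446-80292475, plus strand, run of 11 from 25: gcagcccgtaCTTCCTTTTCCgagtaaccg
Rpl28, chr7:4792952-4792981, plus strand, run of 11 from -3: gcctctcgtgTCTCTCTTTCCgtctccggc
Rps16, chr7:28350665-28350694, plus strand, run of 5 from -11: gccgtaaagcccgCTTCTgtcgtgacgtag
Rps3, chr7:99483720-99483749, minus strand, run of 6 from -28: tgcaaaacttcaTTTCCCatgaacacttgc
Rps10, chr17:27635227-27635256, minus strand, run of 13 from -3: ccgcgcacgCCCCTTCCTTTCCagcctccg
Rps12, chr10:23787182-23787211, minus strand, run of 11 from 8: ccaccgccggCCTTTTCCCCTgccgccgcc
Rpl3l, chr17:24727846-24727875, plus strand, run of 9 from 31: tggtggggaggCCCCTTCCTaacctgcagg
Rpl22, chr4:152325683-152325712, plus strand, run of 5 from -30: ctgactcctccctTTCCCgacagccgactt
Rpl36al, chr12:69184020-69184049, minus strand, run of 10 from 28: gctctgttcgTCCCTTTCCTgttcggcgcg
Mrpl45, chr11:97315702-97315731, plus strand, run of 10 from -4: tgcccgcgcgCCCCTCCCCTggagagcgtg
Mrpl51, chr6:125192214-125192243, plus strand, run of 8 from 25: gcccaaaatggCTCCTCTTactgtcactac
The longest run began between -4 and 8 in Rpl28, Rps10, Rps12 and Mrpl45, and it lay farther from the start in the other 8 genes shown. Rps16 and Rps3, which passed with a positive ratio, had runs of only 5 or 6 bases. In Rpl22, which also passed with a positive ratio, the 5 marked bases are the end of a longer run that begins before the window.

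A run of at least 8 pyrimidines stood in this window in 35 of 51 cytosolic members (68.6%), in 16 of 56 mitochondrial members (28.6%) and in 24.8% of 17491 protein-coding genes. Promoters were matched for 107 of the 120 genes. Only bases inside the window counted, so a longer run that crosses its edge, as in Rpl22, was counted by its inner part. A run counted wherever it lay in the window, so these are not shares of runs at the 5′ end of the message. Among the cytosolic members, a run of this length stood in 6 of 9 that passed the test with a positive ratio and in 28 of 41 that did not pass (68.3%). These shares were not tested against each other, and some of these runs lie away from the start. The letters CCGGAAG, a core bound by GABPA and related ETS factors, were searched on both strands of the 300 bases from 250 before to 50 after the start. They were found in 22 cytosolic promoters (43.1%), 18 mitochondrial promoters (32.1%) and 11.9% of all promoters. Among the cytosolic members they were in 1 of the 9 that passed with a positive ratio, Rps10, and in 21 of the 41 that did not pass (51.2%). This difference was not tested. The letters AAGATGGC, known from YY1 sites, were in 19.6% of mitochondrial, 5.88% of cytosolic and 3.22% of all promoters. The letters TATAAA of a TATA box were in 7.14%, 5.88% and 13.3% in the same order. These shares describe letters in a window, not binding.

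The arrays measured between 10922 and 13132 probes each. Over all tested probes 2835 passed limma's test at a Benjamini-Hochberg adjusted p of 0.05, 1401 positive and 1434 negative. The array of mouse 3 had the narrowest ratios (SD over probes 0.21) and that of mouse 1 the widest (0.47). The weight that limma estimated for each array was lowest for mouse 1, at 0.56. Each mouse had 1 array, so a difference between mice and a difference between arrays cannot be told apart. Reference genes of the OVA response, among them Clca1 and Retnla, passed in 7 of 8 cases, all negative, with a median of -2.72, but their median was 0.17 in mouse 3. Airway and alveolar markers of the lung passed in 9 of 14 probes (64.3%), 6 positive, such as Scgb1a1 at 1.38 and Cyp2f2 at 1.33, and 3 negative, such as Sftpa1 at -0.61. Their part in the ratios of ribosomal proteins was not tested. Counts of members that passed are given with and without each mouse, while spreads and signs over mice are given with all mice only. The pool is 1 control sample on every array, so its own deviation from other control lungs is part of every ratio and was not tested. In whole lung, fewer cells of a type and less RNA per cell cannot be told apart.

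Few ribosomal protein transcripts passed the test, and most of these were positive, with Rps23 and Rps15 of the cytosolic small subunit the farthest from the pool. Of the 121 members 19 passed limma's test (15.7%), against 24.4% of all probes. Positive ratios that passed were found in 16 of the 121, a share close to the 12.0% of all probes. Negative ones were found in 3 of the 121, a share below the 12.3% of all probes. In the cytosolic set 11 of 58 passed (19.0%), 10 positive and 1 negative, and in the mitochondrial set 8 of 63 (12.7%), 6 positive and 2 negative. The median of the mean log2 ratios was 0.04 over cytosolic, 0.01 over mitochondrial and -0.004 over all probes. Without regard to sign, the median size of the mean was 0.109, 0.085 and 0.11 in the same order. By this measure the cytosolic members were as far from the pool as all probes. Only Rps23 and Rps15 were at least 1.5-fold apart from the pool, against 4.88% of all probes that passed both the test and this fold. Both shares of members that passed were thus below the share over all probes, and the difference between the sets was not tested.

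**Figure D1:**
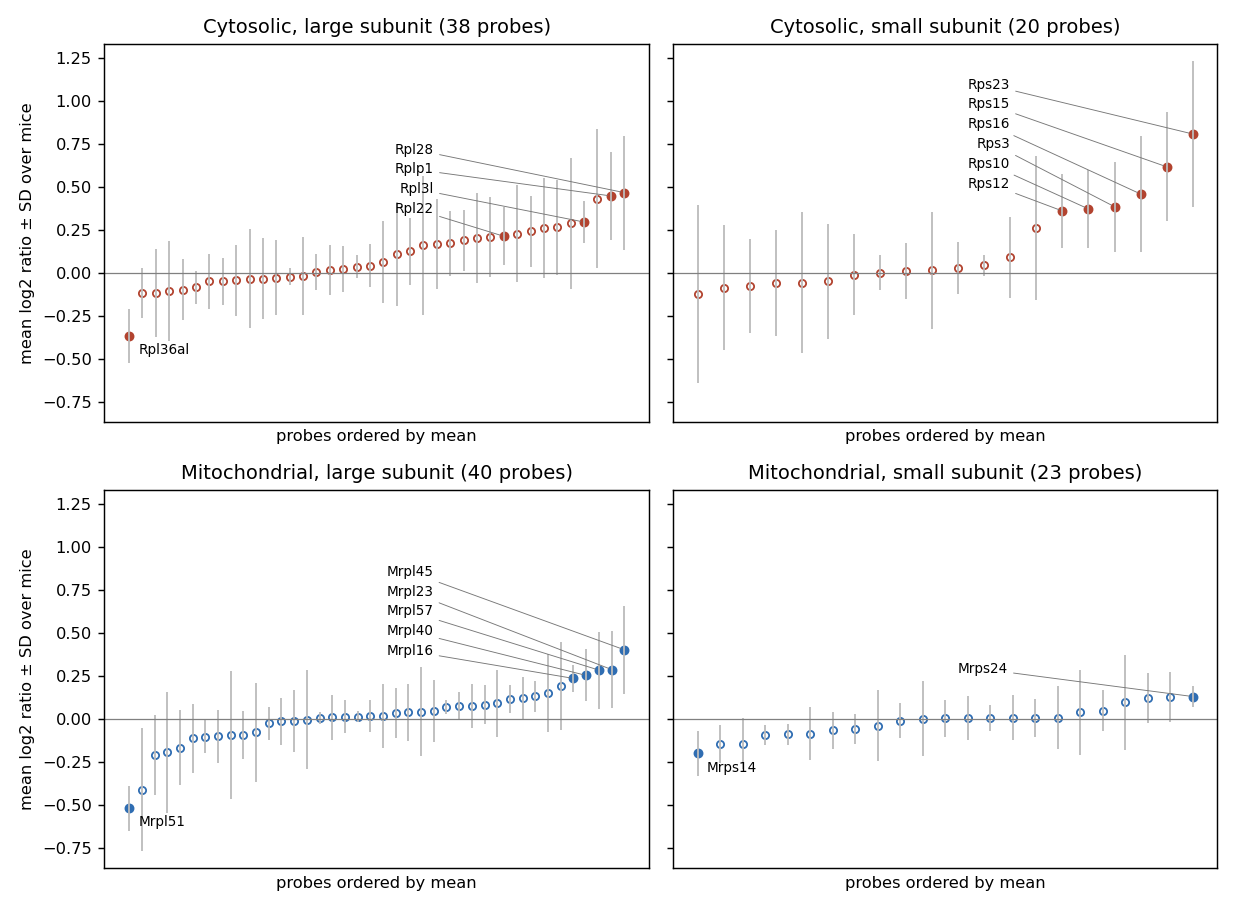
Mean log2 ratio (vertical axis, deposited sign) of every tested ribosomal protein probe, ordered by its mean along the horizontal axis within the 4 subunits. Bars are 1 SD over the mice, filled points passed limma's test at an adjusted p of 0.05. The filled points lie mainly at the upper end, from Mrps24 at 0.13 to Rps23 at 0.81, with Rpl36al, Mrps14 and Mrpl51 at the lower end.

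How many members passed depended on single mice. Without mouse 2 there were 5 cytosolic and 2 mitochondrial members that passed, without mouse 4 there were 4 and 3, and without mouse 6 there were 6 and 2. The count over all probes fell with them, to 12.7%, 12.6% and 15.9% of those tested. Without mouse 1 the cytosolic count was 15 and the mitochondrial 7, while 21.9% of all probes passed. Without mouse 3 the counts were 9 and 5, while the share of all probes was 27.2%. Without mouse 5 they were 9 and 4, with 18.5% of all probes. Of the 19 members, 15 also passed without mouse 1, and Rpl4, Rpl9, Rpl13a, Rpl35, Rpl36, Mrpl2 and Mrpl46 then passed too.

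Mouse 1 stood on the other side of zero from the other mice. The median log2 ratio over cytosolic members was -0.11 in mouse 1 and 0.08, 0.11, 0.09, 0.09 and 0.17 in mice 2 to 6, so the other 5 mice did not overlap with it. Positive ratios made up 30.8% of the cytosolic members in mouse 1 and between 60.3% and 73.7% in the others. Mouse 1 held the lowest of the 6 values in 25 of the 46 cytosolic members measured on all arrays (54.3%), against 25.7% of all probes. The large subunit showed this in 19 of 31 members (61.3%) and the small subunit in 6 of 15.

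The mitochondrial members were spread around zero and showed mouse 1 at the low end as well. Their median was -0.08, 0.04, 0.02, -0.03, 0.09 and 0.02 in mice 1 to 6. Mouse 1 held the lowest value in 21 of 47 members (44.7%), 17 of 31 in the large subunit (54.8%) and 4 of 16 in the small, while mouse 5 held the highest in 17 of 47 (36.2%), against 14.8% of all probes and 15.2% of cytosolic members. The cytosolic minus the mitochondrial median was -0.03, 0.04, 0.09, 0.12, -0.005 and 0.14, with a mean of 0.06 ± 0.07 (SD, n = 6). It was positive in 4 of 6 mice, and its mean was smaller than its SD.

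**Figure D2:**
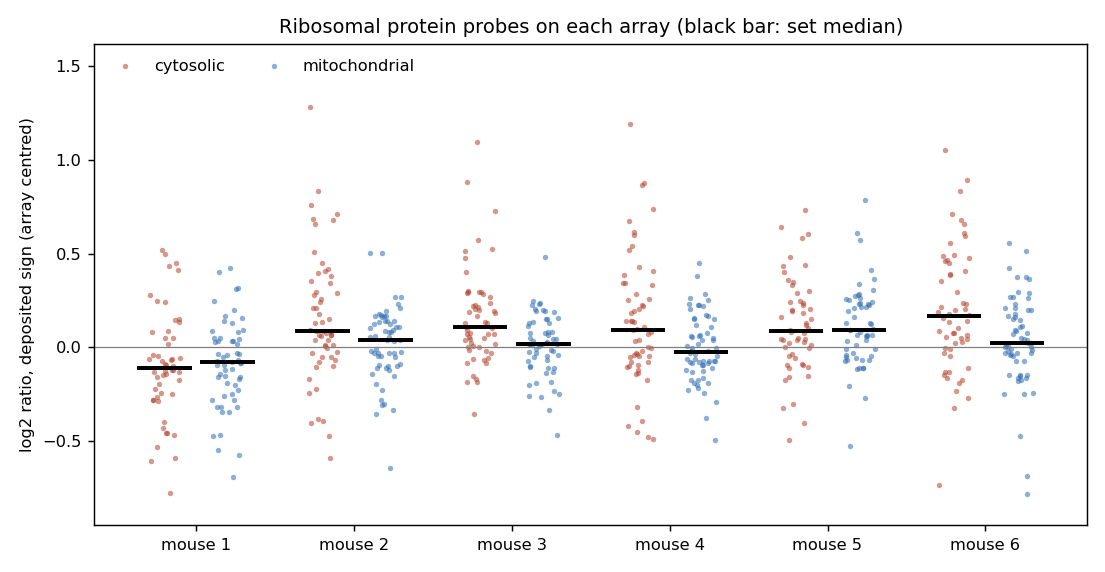
Log2 ratio (vertical axis, deposited sign, each array centred on its median) of every cytosolic and mitochondrial ribosomal protein probe on each of the 6 arrays. Points are probes and black bars are set medians. Both medians are below 0 in mouse 1, at -0.11 and -0.08, and the cytosolic medians of the other mice lie between 0.08 and 0.17.

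Cytosolic probes varied more over the 6 arrays, 1 per mouse, than mitochondrial ones. The median SD over mice was 0.24 for cytosolic members, 0.14 for mitochondrial members and 0.14 for all probes. Within the cytosolic set it was 0.29 for the small and 0.21 for the large subunit, and within the mitochondrial set 0.13 and 0.15. Few members kept 1 sign in all 6 mice: 7 of 46 cytosolic (15.2%) and 5 of 47 mitochondrial members (10.6%), against 30.2% of all probes. Mouse 1 held the lowest value in 25 of these 46 cytosolic members, and the spreads and signs were not worked out without it. Rpl5, a large subunit protein that joins Rpl11 in a particle able to restrain the ubiquitin ligase Mdm2, gives a measure of technical spread, since it was spotted 17 times. Its averaged log2 ratio was -0.10, 0.004, -0.02, -0.04, -0.04 and 0.05 in mice 1 to 6, with a mean of -0.02 ± 0.05 (SD, n = 6), and it did not pass (limma, adjusted p = 0.659). The SD between its spots on an array was between 0.09 and 0.17. Its SD over mice is of averages of 17 spots, which vary less than single spots, and cannot be compared with those of the other members.

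**Figure D3:**
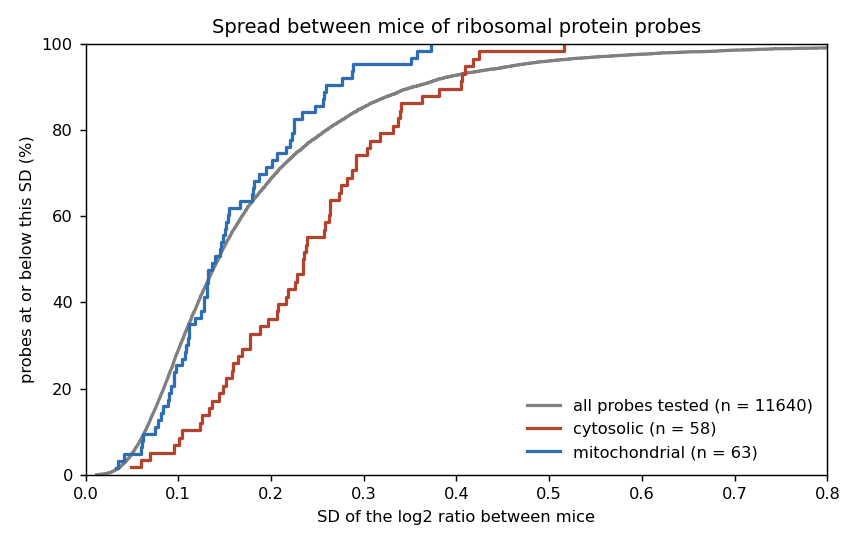
Share of probes (vertical axis, percent) whose SD of the log2 ratio between mice is at or below the value on the horizontal axis, for cytosolic and mitochondrial ribosomal protein probes and all tested probes. The cytosolic curve lies to the right with a median SD of 0.24, while the mitochondrial curve and that of all probes share a median of 0.14.

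The small subunit of the cytosolic ribosome, which reads the message, held 6 of 20 members that passed, all positive. Rps23, a protein of the decoding centre, had log2 ratios of 0.43, 1.28, 1.10, 1.19, 0.36 and 0.49 in mice 1 to 6. Mice 2, 3 and 4 were high, and all 6 were positive. Its mean of 0.81 ± 0.42 (SD, n = 6) put it 1.75-fold apart from the pool (limma, adjusted p = 0.0102), the largest mean of the 121 members. Rps15, which lies close to the decoding site, had 0.28, 0.76, 0.88, 0.74, 0.16 and 0.90. Mice 1 and 5 were low and the other 4 high. The mean was 0.62 ± 0.32 (SD, n = 6), 1.53-fold apart (limma, adjusted p = 0.0102). Both passed with each mouse left out in turn.

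Rps16, whose tail reaches the transfer RNA bound to the ribosome, had log2 ratios of 0.05, 0.71, 0.73, 0.67, 0.001 and 0.59. As in Rps15, mice 1 and 5 were low and the others close together. The mean was 0.46 ± 0.34 (SD, n = 6; limma, adjusted p = 0.0291), and it did not pass without mouse 2, 3, 4 or 6 (limma, adjusted p between 0.0567 and 0.0874). The probes of Rps15 and Rps16 are 24 numbers apart in the table, and both lie near a probe of Actc1, the actin of heart muscle, at distances of 18 and 6. Probes 6, 18 or 24 numbers apart had correlated mean ratios across the table (Pearson r = 0.133, 0.102 and 0.106 over all probe pairs, which are not independent), while those 12 apart did not (r = -0.003). Actc1 was at 2.32, 1.86, 0.49, 0.90, 0.27 and 1.33 in mice 1 to 6. All 3 probes were high in mice 2 and 6 and low in mouse 5, whereas in mouse 1 Actc1 was at its highest with Rps15 and Rps16 low, and in mouse 3 it was low with both high. The part of this neighbour in their ratios was not tested.

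Rps3, at the channel through which the message enters, had log2 ratios of 0.24, 0.68, 0.19, 0.41, 0.08 and 0.71. All 6 were positive, with mice 2 and 6 above the rest. Its mean was 0.39 ± 0.26 (SD, n = 6; limma, adjusted p = 0.0243), and it did not pass without mouse 2, 4 or 6 (limma, adjusted p between 0.0590 and 0.0700). Its probe lies 6 numbers from that of Me1, a malic enzyme with a mean of 0.51, and the part of that neighbour was not tested.

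Rps10 and Rps12, both of the head of the small subunit, were measured on 5 arrays each. Rps10 had 0.02, 0.29, 0.52, 0.60 and 0.44 in mice 1 to 5, low in mouse 1 alone, with a mean of 0.37 ± 0.23 (SD, n = 5; limma, adjusted p = 0.0273). Rps12 had 0.06, 0.27, 0.33, 0.58 and 0.56 in mice 2 to 6, low in mouse 2, with a mean of 0.36 ± 0.22 (SD, n = 5; limma, adjusted p = 0.0265). Neither held when single mice were left out: Rps10 did not pass without mouse 2, 3, 4 or 5 (limma, adjusted p between 0.0582 and 0.0836), nor Rps12 without mouse 4, 5 or 6 (between 0.0695 and 0.0755). Rps12 also has 23 named pseudogenes in RefSeq, more than any member but Rpl31, which has as many.

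The 14 small subunit members that did not pass had means between -0.12 and 0.26, and several had opposite signs in different mice. Rps24 had the largest SD of all members, with 0.45, -0.59, 0.20, 0.34, -0.41 and -0.73 in mice 1 to 6 and a mean of -0.12 ± 0.52 (SD, n = 6; limma, adjusted p = 0.639). Mice 1, 3 and 4 were positive and mice 2, 5 and 6 negative. Rps13 had its signs in the same mice, with 0.41, -0.40, 0.11, 0.07, -0.30 and -0.24. Rps2, Rps7 and Rps26 instead had their lowest value in mouse 1, at -0.61, -0.78 and -0.46, and their highest in mouse 5, at 0.48, 0.29 and 0.33. Rps27 ranged from -0.32 in mouse 5 to 0.87 in mouse 4 (mean 0.26 ± 0.42, SD, n = 6; limma, adjusted p = 0.221). Rpsa, a small subunit protein also known as a laminin receptor precursor, had -0.12, -0.10, 0.07 and 0.14 in mice 1 to 4 and 0.46 in mouse 6, with a mean of 0.09 ± 0.24 (SD, n = 5; limma, adjusted p = 0.507), and its mean was -0.004 without mouse 6. Rps27l, a copy of Rps27 known as a p53 target, was at -0.59 in mouse 1 and -0.19 in mouse 3 and between 0.19 and 0.28 in the others.

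The large subunit of the cytosolic ribosome, which forms the peptide bond, had 5 of 38 members that passed (13.2%), 4 positive and 1 negative. Rpl28, a protein found in eukaryotes but not in bacteria, had -0.10 in mouse 1 and 0.83, 0.48, 0.61, 0.30 and 0.68 in mice 2 to 6. Mouse 1 alone was negative. Its mean was 0.47 ± 0.33 (SD, n = 6), 1.38-fold apart (limma, adjusted p = 0.0258), and it did not pass without mouse 2, 4 or 6 (limma, adjusted p between 0.0710 and 0.0773). Rpl13a, which leaves the ribosome in the GAIT complex to silence inflammatory messages, had -0.13, 0.66, 0.40, 0.43, 0.18 and 1.06. Mouse 1 was again the only negative one and mouse 6 the highest. Its mean of 0.43 ± 0.41 (SD, n = 6) did not pass (limma, adjusted p = 0.0598), but passed without mouse 1 (0.0264), with array weights (0.0250) and with scaled or quantile-normalized arrays (0.0440 and 0.0483).

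The stalk of the large subunit, which recruits elongation factors, is built from Rplp0 at its base and pairs of Rplp1 and Rplp2. Rplp1 had 0.08, 0.45, 0.52, 0.88, 0.40 and 0.36, positive in all 6 mice and highest in mouse 4. Its mean was 0.45 ± 0.26 (SD, n = 6), 1.36-fold apart (limma, adjusted p = 0.0148), and it passed with each mouse left out. Its partners did not pass. Rplp0 had 0.08, -0.40, 0.20, -0.49, -0.15 and 0.14 (mean -0.10 ± 0.29, SD, n = 6; limma, adjusted p = 0.484), and Rplp2 had 0.05, 0.06, -0.36 and -0.05 in mice 1 to 4 and -0.19 in mouse 6 (mean -0.10 ± 0.18, SD, n = 5; limma, adjusted p = 0.365). Mouse 4 was the highest for Rplp1 and the lowest for Rplp0. The probes of Rplp1 and Rpl28 are 24 numbers apart, a distance at which mean ratios were correlated, and the part of this in their ratios was not tested.

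Rpl22, an RNA-binding protein of the large subunit, had 0.52, 0.24, 0.02, 0.18, 0.12 and 0.20. It was positive in all 6 mice and, unlike most members, highest in mouse 1. Its mean of 0.21 ± 0.17 (SD, n = 6; limma, adjusted p = 0.0485) did not pass when mouse 1, 2, 4, 5 or 6 was left out (limma, adjusted p between 0.0609 and 0.118), nor when probes measured on 3 arrays were added to the fit (0.0501). The 33 large subunit members that did not pass had means between -0.12 for Rpl11 and 0.43 for Rpl13a. Rpl38, known for its part in translating Hox messages, had -0.40 in mouse 1 and 0.73 in mouse 5 (mean 0.16 ± 0.40, SD, n = 5; limma, adjusted p = 0.461).

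The only negative cytosolic ratio that passed was that of a copy of a core protein. Rpl36al, an expressed copy of Rpl36a, had -0.53, -0.22, -0.15, -0.48, -0.50 and -0.32 in mice 1 to 6. All 6 mice were negative, without overlap with zero. Its mean was -0.37 ± 0.16 (SD, n = 6), 1.29-fold apart (limma, adjusted p = 0.00828), and it passed with each mouse left out and at an adjusted p of 0.01. Rpl3l, the copy of Rpl3 known from heart and skeletal muscle, had 0.38, 0.13, 0.29, 0.24 and 0.45 in mice 2 to 6, positive in all 5, with a mean of 0.30 ± 0.12 (SD, n = 5; limma, adjusted p = 0.0151). It did not pass without mouse 2 (limma, adjusted p = 0.0559) or mouse 4 (0.0528). Rpl3 itself had a mean of 0.23 ± 0.28 (SD, n = 6; limma, adjusted p = 0.130). Heart and muscle markers passed in 11 of 17 probes, all positive, with medians of 1.36, 1.52, 0.10, 0.90, 0.10 and 0.59 in mice 1 to 6, and their part in the ratio of Rpl3l was not tested. The other copies did not pass: Rpl39l had a mean of -0.08 (limma, adjusted p = 0.205), and Rpl7l1 one of 0.02 (0.828), which was -0.003 with array weights.

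**Figure D4:**
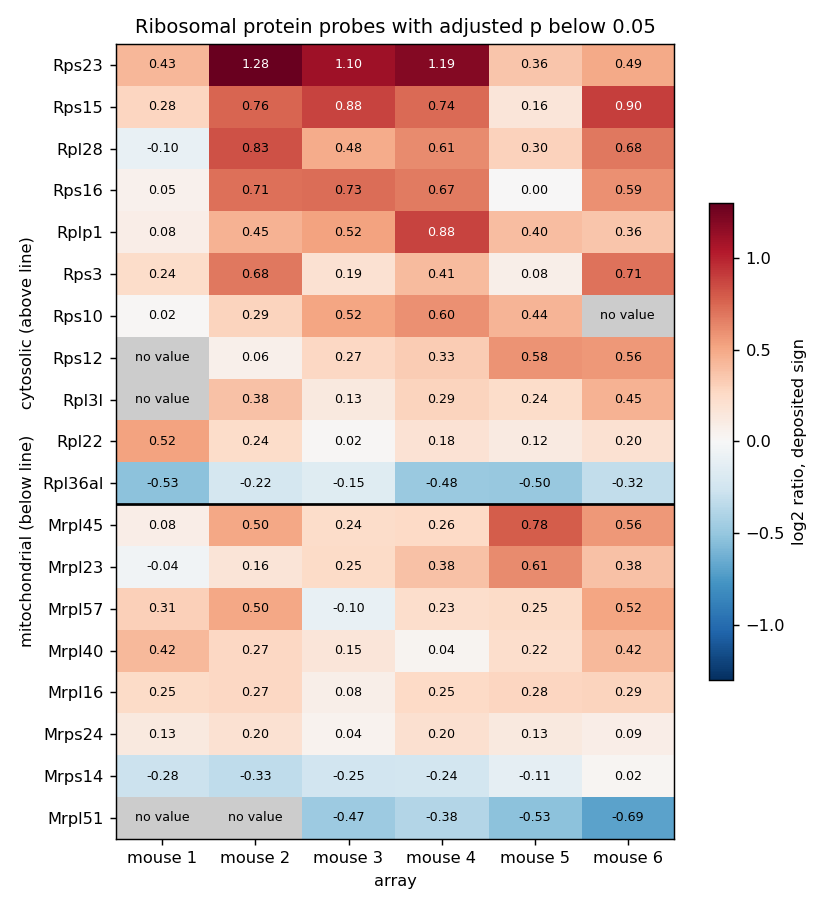
Log2 ratio (colour and printed value, deposited sign) of the 19 ribosomal protein probes that passed limma's test, in rows, on each array, in columns. Cytosolic members are above the line and mitochondrial members below, and grey cells have no value. Mouse 1 is pale or blue in Rpl28, Rps16, Rplp1, Rps10 and Mrpl23, and Rps23 reaches 1.28 in mouse 2.

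The large subunit of the mitochondrial ribosome had 6 of 40 members that passed (15.0%), 5 positive and 1 negative. Mrpl45, which anchors the ribosome to the inner membrane beside its exit tunnel, had 0.08, 0.50, 0.24, 0.26, 0.78 and 0.56 in mice 1 to 6. All 6 were positive, with mouse 5 the highest. Its mean was 0.40 ± 0.26 (SD, n = 6), 1.32-fold apart (limma, adjusted p = 0.0198), and it did not pass without mouse 2 (limma, adjusted p = 0.0640) or mouse 6 (0.0574). Its probe is 6 numbers from that of Dpep3 (mean 0.74) and 24 from that of Sod1 (mean 0.82), both stronger and positive, and their part was not tested. Mrpl23, also of the tunnel exit, had -0.04, 0.16, 0.25, 0.38, 0.61 and 0.38. It too was lowest in mouse 1 and highest in mouse 5. Its mean was 0.29 ± 0.22 (SD, n = 6; limma, adjusted p = 0.0381), and without any 1 of mice 2 to 6 it did not pass (limma, adjusted p between 0.0580 and 0.104). Its probe is 24 numbers from that of Cbfa2t3 (mean 0.63), whose part was not tested.

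Mrpl16, of a protein family shared with bacterial ribosomes, had an even positive ratio. It was 0.25, 0.27, 0.08, 0.25, 0.28 and 0.29, close together but for mouse 3. The mean was 0.24 ± 0.08 (SD, n = 6), 1.18-fold apart (limma, adjusted p = 0.00892), and it passed with each mouse left out. Its probe is 18 numbers from that of Myo5c (mean 0.26) and 24 from that of Rdm1 (mean 0.26), both slightly stronger, and their part was not tested. Mrpl40 had 0.42, 0.27, 0.15, 0.04, 0.22 and 0.42, positive in all 6 (mean 0.25 ± 0.15, SD, n = 6; limma, adjusted p = 0.0218), and did not pass without mouse 2 (limma, adjusted p = 0.0654) or mouse 6 (0.0586). Mrpl57 had 0.31, 0.50, -0.10, 0.23, 0.25 and 0.51, negative in mouse 3 alone (mean 0.29 ± 0.22, SD, n = 6; limma, adjusted p = 0.0409). It did not pass without mouse 1, 2, 4, 5 or 6 (limma, adjusted p between 0.0771 and 0.113) or with quantile-normalized arrays (0.0515).

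Mrpl51 had the lowest mean of all members. It had no value in mice 1 and 2 and was at -0.47, -0.38, -0.53 and -0.69 in mice 3 to 6. The 4 measured mice were all negative, with a mean of -0.52 ± 0.13 (SD, n = 4), 1.43-fold apart (limma, adjusted p = 0.00765). Its probe is 6 numbers from a probe without a symbol (mean -0.49), 18 from that of Rap2c (mean -0.33) and 24 from that of Dguok (mean -0.30). All of these passed and were weaker and negative, and their part was not tested. Leaving out any 1 of these 4 mice left Mrpl51 on too few arrays to be tested. Mrpl20 was next at -0.65, -0.09, -0.12 and -0.78 in mice 2, 4, 5 and 6, and its mean of -0.41 ± 0.36 (SD, n = 4) did not pass (limma, adjusted p = 0.0886). The other mitochondrial large subunit members that did not pass had means of up to 0.19. Mrpl43 varied most between mice, from -0.69 in mouse 1 to 0.24 in mouse 5 (mean -0.09 ± 0.37, SD, n = 6; limma, adjusted p = 0.624), and its mean was 0.03 without mouse 1. The 2 probes of Mrpl3, the only gene with more than 1 tested probe, had means of -0.10 and -0.01 and neither passed.

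The small subunit of the mitochondrial ribosome lay nearest to the pool, with a median size of the mean log2 ratio of 0.06 against 0.11 over all probes and 2 of 23 members that passed (8.70%), 1 on each side. Mrps24 had 0.13, 0.20, 0.04, 0.20, 0.13 and 0.09, positive in all 6 mice. Its mean of 0.13 ± 0.06 (SD, n = 6), 1.10-fold apart, passed only narrowly (limma, adjusted p = 0.0385), and not without mouse 1, 2, 4, 5 or 6 (limma, adjusted p between 0.0706 and 0.116). Mrps14 had -0.28, -0.33, -0.25, -0.24, -0.11 and 0.02, negative in the first 5 mice (mean -0.20 ± 0.13, SD, n = 6; limma, adjusted p = 0.0338), and did not pass without any 1 of mice 1 to 5 (limma, adjusted p between 0.0558 and 0.0998). Its probe is 24 numbers from that of Pinx1 (mean -0.31), whose part was not tested. The 21 that did not pass had means between -0.15 and 0.13. Mrps28 was the most variable of them with Mrps33: it was between -0.15 and -0.01 in mice 1 to 4 and at 0.57 and 0.29 in mice 5 and 6.

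Of the members outside the test, 8 probes had no value on any array: Rpl13, Rpl22l1, Rps20, Mrpl13, Mrpl19, Mrps10, Mrps35 and 1 of the probes of Mrps12. Another 8 were measured on 1 to 3 arrays, with means between 0.0007 for a probe of Mrps15 and 0.25 for Rpl12. RefSeq names 309 pseudogenes with a cytosolic ribosomal protein symbol and 6 with a mitochondrial one. Probe sequences were not used here, so which of these copies a cytosolic probe also binds was not tested.

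The factors that work with the cytosolic ribosome did not lie on 1 side. Initiation factors passed in 3 of 29 probes (10.3%), with Eif3a at -0.38 (limma, adjusted p = 0.0280), Eif4e3 at -0.22 (0.0133) and Eif3f at 0.18 (0.0305). Elongation and termination factors passed in 5 of 12 (41.7%), 4 positive and 1 negative. Among these, Eef2, the translocase of elongation, had 0.75, 0.62, 0.42, 0.52, -0.19 and 0.26 (mean 0.40 ± 0.33, SD, n = 6; limma, adjusted p = 0.0432), and Eef1d, an exchange factor of elongation, had 0.12, 0.32, 0.27, 0.37, 0.43 and 0.55 (mean 0.34 ± 0.14, SD, n = 6; limma, adjusted p = 0.00838). Eef1d was positive in all 6 mice, Eef2 in all but mouse 5. Of the cytosolic aminoacyl-tRNA synthetases 2 of 14 passed (14.3%), both negative: Tars at -0.39 (limma, adjusted p = 0.0102) and Cars at -0.22 (0.0192).

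Factors that build ribosomes in the nucleolus passed in 16 of 69 probes (23.2%), a share near that of all probes, with 11 negative and 5 positive. Of the 58 cytosolic ribosomal proteins, 1 passed with a negative and 10 with a positive ratio. Over all probes 12.3% passed with a negative and 12.0% with a positive ratio, and the difference between these lists was not tested. Nop58, a core protein of the particles that methylate ribosomal RNA, had -1.12, -0.80, -0.46, -0.98, -0.28 and -0.57 (mean -0.70 ± 0.32, SD, n = 6; limma, adjusted p = 0.00755). Its partner Fbl, the methyltransferase fibrillarin, had a mean of -0.37 ± 0.22 (SD, n = 6; limma, adjusted p = 0.0177). Grwd1, a factor of large subunit assembly, was even across mice, with -0.48, -0.45, -0.46, -0.71, -0.54 and -0.44 (mean -0.51 ± 0.10, SD, n = 6; limma, adjusted p = 0.00241). Imp3 lay on the positive side at 0.43 ± 0.13 (SD, n = 5; limma, adjusted p = 0.00633). Cell cycle markers, on the same side as the negative factors, passed in 12 of 18 probes, all negative, with medians of -1.12, -0.94, 0.07, -0.71, -0.45 and -0.72 in mice 1 to 6, and their part was not tested.

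The proteins of mitochondrial translation and transcription passed in 5 of 19 probes (26.3%), with Tars2 at 0.35 (limma, adjusted p = 0.0191), Mterf3 at -0.34 (0.0492) and C1qbp at -0.26 (0.0307). Subunits and assembly factors of oxidative phosphorylation, chosen by name, passed in 27 of 67 probes (40.3%), all positive, with a median of 0.16 against 0.01 for the mitochondrial ribosomal proteins. Their medians by mouse were 0.08, 0.23, 0.10, 0.18, 0.24 and 0.24, positive in each mouse. Those of the mitochondrial ribosomal proteins were at or below 0.09 in all 6. Some of those subunits, such as Cox8b and Cox7a1, are forms of heart and brown fat. Cox8b is also among the heart and muscle markers and Cox7a1 among the adipocyte markers, so these lists share members. The oxidative phosphorylation probes that passed include a probe with a pseudogene symbol. Adipocyte markers passed in 6 of 9 probes, all positive, with medians of 1.33, 0.90, 0.25, 1.28, 0.25 and 1.31, and the markers of heart and muscle are given beside Rpl3l. The part of these markers in the ratios of mitochondrial genes was not tested. Of the B, T and plasma cell markers 0 of 13 passed limma's test, with 4 at an unadjusted p below 0.05, and their medians were -0.33, -0.24, 0.25, -0.18, -0.15 and -0.02. These medians were negative in mice 2, 4, 5 and 6, where those of the cytosolic ribosomal proteins were positive. Both were negative in mouse 1 and both positive in mouse 3. The part of these cells in the ratios of ribosomal proteins was not tested.

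**Figure D5:**
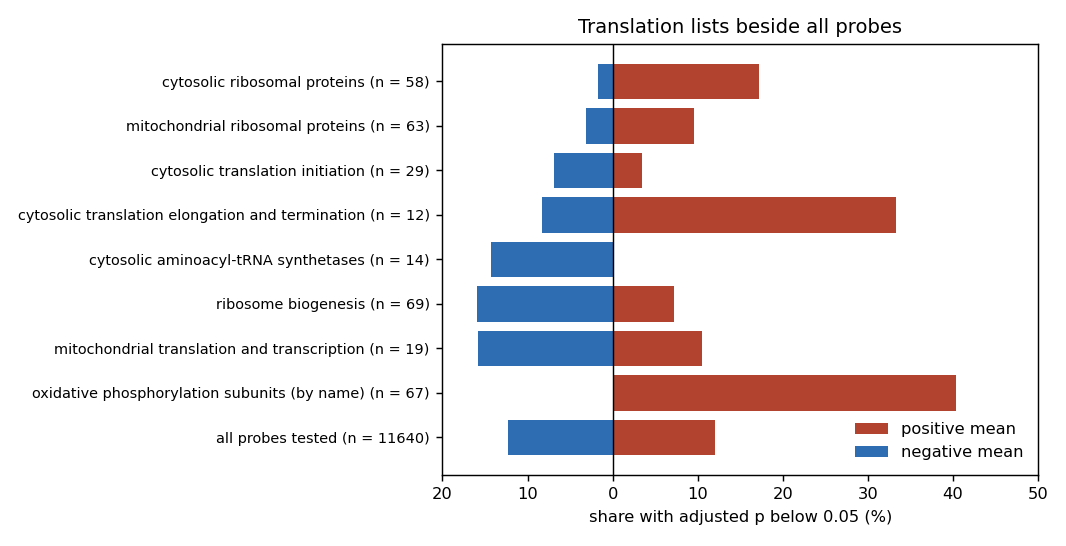
Share of probes that passed limma's test at an adjusted p of 0.05 (horizontal axis, percent) with a positive mean, to the right, and a negative mean, to the left, for the ribosomal protein sets, the lists of related genes and all tested probes. The cytosolic and mitochondrial ribosomal proteins pass in 19.0% and 12.7%, below the 24.4% of all probes, while oxidative phosphorylation reaches 40.3%, all positive.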

How the data were processed

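Each array held RNA of 1 of 6 OVA mice beside that of 1 pool of control lungs. The authors deposited 1 log ratio per spot and array, read here as log2 from the range of the values. A natural logarithm cannot be told apart from it and would make every fold larger. The sources used here do not give the scanner, background correction, normalization, dyes or direction of the ratio. Spot intensities were not used here, so dim or saturated spots could not be marked. Each array was centred on its median over probes measured on all arrays, and 10 sequences spotted 17 times each were averaged to 1 row each. Probes measured on at least 4 arrays were tested against 0 by limma's lmFit and eBayes (version 3.58.1, R 4.3.3; intercept alone, two-sided), with Benjamini-Hochberg adjustment over all 11640 probes and a threshold of 0.05. Missing values were not imputed. The fit was tested on simulated data. Variation among control mice is not part of the test, a dye effect on 1 gene stays in its ratio because no dye swap is known, and the number of arrays limits the precision.

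The platform annotation gave 1 symbol for 14722 probes, several for 1 and none for 2557, and 14450 symbols matched the RefSeq gene table of GRCm38.p6, which was used for names and promoters. The rule for named genes took, in each subunit, up to 4 highest and 4 lowest members that passed and the 2 with the largest SD, beside Rpl5, the stalk proteins, Rpsa and copies, and up to 3 members that passed of each list of related genes. Rps2, Rps7, Rps13, Rps26, Rps27, Rpl3, Rpl11, Mrpl3, Fbl, Cox8b, Cox7a1, Sftpa1, the neighbouring probes and the members gained without mouse 1 were named after their values were seen. The members, lists and alternatives were chosen with earlier results of these data known. Set medians were not tested. As alternatives, arrays were left uncentred, scaled, quantile-normalized or weighted, the minimum of arrays was changed, variances were estimated robustly or without moderation, thresholds were made stricter, genes replaced probes, repeated rows or probes near a stronger one were dropped, and each mouse was left out. Plots used matplotlib 3.10.9 under Python 3.11.15.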

Additional observations from a re-analysis of the deposited data

Results flagged for a closer look

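Of 36 results examined over the mice with a value, 2 had a sample far from the others by Dixon's criterion. Chance flags about 1 in 20 groups, so chance alone can give 2 flags among 36. The median log2 ratio of the cytosolic ribosomal proteins was -0.112 in mouse 1 and between 0.084 and 0.165 in the other 5 mice, a gap of 0.708 of the whole range. Mrpl16 was at 0.081 in mouse 3 and between 0.247 and 0.292 in the other 5, a gap of 0.787 of the range.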

How the results depend on the processing

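The counts of probes that passed depended on the variance model and the threshold. Without moderated variances 1443 of all, 4 cytosolic and 3 mitochondrial probes passed, and at an adjusted p of 0.01 there were 746, 1 and 2. With a floor of 1.5-fold there were 568, 2 and 0. Array weights gave 17 cytosolic and 9 mitochondrial probes, with 3436 of all. Leaving out every probe 6, 18 or 24 numbers from a stronger one of the same sign that passed, an alternative chosen after seeing the data, left 1718 of 6986, 6 of 30 cytosolic and 4 of 36 mitochondrial probes. With 1 mouse left out the counts were 1355 to 3003 for all, 4 to 15 for cytosolic and 2 to 7 for mitochondrial probes, and the difference of the set medians was 0.04 to 0.085. The means that changed sign were of members that had not passed: Rpl7l1 was -0.003 with array weights, and with 1 mouse left out Rps27l ranged from -0.037 to 0.137, Rpsa from -0.004 to 0.143 and Mrpl43 from -0.161 to 0.026. Of the values of single named members under the alternatives, 509 kept their direction and side of the threshold, 96 no longer passed and 4 newly passed. The number of arrays and the single pool limit what these ratios can show. No paired analysis was possible because the labels give 1 group.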
